A study of Homo sapiens with 9 samples.

Results

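The type I interferon response was followed in THP-1 cells, a human monocytic leukaemia line that grows in suspension, that had received the plant triterpene lupeol or only its solvent for 48 h. The gene set holds 39 genes, chosen by name as interferon-stimulated effectors together with their STAT and IRF regulators, out of 67928 genes in the deposited count table. All 39 were found and all 39 passed the filter on low counts, which kept 17568 genes. The 9 RNA-seq libraries form 3 groups of 3: cells given the solvent, cells given lupeol at 50 µmol/L (lupeol 50) and cells given lupeol at 80 µmol/L (lupeol 80). Every group is the same cell line in the same serum-containing medium, the labels name no genetic change, and no interferon treatment is named. Whether the 3 libraries of a group stem from independent cultures is not stated, and the p-values therefore reflect a spread that could be technical.

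Type I interferons bind the receptor chains IFNAR1 and IFNAR2, whose kinases JAK1 and TYK2 phosphorylate STAT2. The complex ISGF3, which holds STAT2 and IRF9, then binds the interferon-stimulated response element (ISRE) in front of its target genes. In monocytes the pathway is known for antiviral defence and also runs at a low tonic level without infection. The targets encode proteins that block virus entry, assembly or release, enzymes that act on RNA and nucleotides, sensors of foreign RNA, and the pathway's own signal carriers and brakes.

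Promoter windows show the element that several of these genes share. RefSeq windows (build GRCh38.p14) were found for 31 of the 39 genes, and the other 8 are MX2, IRF7, IFIT2, IFITM2, OAS2, OASL, USP18 and TRIM22. The ISRE core is spelled GAAA, any 2 bases, GAAA and was searched on both strands. It lay in the 250 bases before an annotated start for 20 of these 31 genes (64.5%). Over all genes with a window the share was 1014 of 27305 (3.71%). Some genes have several windows, and a gene counted if any of them matched. By window, 23 of 41 in the set (56.1%) held the core, against 3.02% of all windows. At least 2 matches, which may overlap, were found for 12 of the genes. The motif TTCNNNGAA, the palindromic core bound by STAT dimers, likewise searched on both strands, was found for 10 of the 31 genes (32.3%), against 2208 of the 27305 (8.09%). A match describes letters in a window and not a bound site. The stretches below, read 5′ to 3′ along each gene's own strand, are shown for 10 genes with a match that the results below turn on. Each comes from a single window of its gene, around the match nearest to the start of that window's transcript. Capitals mark the core, which reads TTTC, any 2 bases, TTTC where it lies on the other strand, and a shorter block at an edge belongs to a match that the window cuts.
BST2, chr19:17405725-17405774, minus strand: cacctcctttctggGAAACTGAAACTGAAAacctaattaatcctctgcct
ISG15, chr1:1013370-1013419, plus strand: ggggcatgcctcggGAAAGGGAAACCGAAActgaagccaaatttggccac
IFIT1, chr10:89392500-89392549, plus strand: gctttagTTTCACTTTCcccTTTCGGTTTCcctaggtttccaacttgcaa
IFITM1, chr11:313980-314029, plus strand: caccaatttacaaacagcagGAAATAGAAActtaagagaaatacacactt
IFITM3, chr11:320866-320915, minus strand: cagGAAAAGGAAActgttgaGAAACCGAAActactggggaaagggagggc
IFI6, chr1:27672256-27672305, minus strand: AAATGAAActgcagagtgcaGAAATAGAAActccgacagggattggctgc
MX1, chr21:41431834-41431883, plus strand: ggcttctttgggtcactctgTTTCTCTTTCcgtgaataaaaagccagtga
OAS3, chr12:112938442-112938473, plus strand: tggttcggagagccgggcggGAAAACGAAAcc
IFI44L, chr1:78620355-78620404, plus strand: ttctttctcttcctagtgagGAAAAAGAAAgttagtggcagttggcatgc
PARP14, chr3:122680790-122680838, plus strand: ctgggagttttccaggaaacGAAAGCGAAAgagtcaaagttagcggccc

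In BST2 and ISG15 the capitals run through overlapping matches, and in IFIT1 and IFITM3 they form separate blocks. No core was found in the windows of 11 genes, namely IRF1, IRF9, STAT2, IFI35, OAS1, HERC6, XAF1, RIGI, CMPK2, SAMD9L and DTX3L, which says only that these letters are not in those 250 bases. The median log2 fold change at lupeol 80 was -0.74 for the 20 genes with a match and -0.67 for the 11 without, and the difference was not tested.

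Libraries held between 26134744 and 38430299 counts. Of 12 monocyte markers, 10 passed the filter, and the rest had counts but did not pass it. Against control, log2 fold changes of these 10 ran from -1.29 to 0.44 at lupeol 50 and from -0.77 to 0.13 at lupeol 80. Summed monocyte marker levels ran from 2486 to 3185 CPM (counts scaled to library size) in the controls, 2209 to 2556 CPM at lupeol 50 and 2637 to 2977 CPM at lupeol 80. Of 5 markers of plasmacytoid dendritic cells, the professional interferon producers, CLEC4C and GZMB were at 0 in all 9 libraries. IL3RA and TCF4, which other cells also express, passed the filter, and the list summed to 28.5 to 40.8 CPM. No T cell or erythroid marker of the 5 in each list passed the filter, and neither summed to more than 0.299 CPM in a library. The B cell list was at most 61.6 CPM in sum, mostly PAX5, and MS4A1 was at 0 in every library. The NK cell list summed to 19.7 to 25.3 CPM, with KLRD1 at 0, and the fibroblast list to at most 0.859 CPM, with COL1A2, COL3A1 and LUM at 0. In bulk libraries, fewer cells with a transcript and less transcript per cell cannot be told apart.

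Solvent-treated THP-1 cells already expressed the set. Per kilobase of the deposited gene length, which is the union of a gene's exons, control levels were highest for BST2, the membrane protein tetherin that holds budding virus on the cell, at 289.8 ± 52.5 RPKM (mean ± SD, n = 3). Next in the order came IFI6, a small interferon-induced membrane protein, at 274 ± 118 RPKM and ISG15, the ubiquitin-like modifier of the response, at 182 ± 64.8 RPKM. IFITM3, which blocks virus entry from endosomes, stood at 96.3 ± 40.7 RPKM, its paralog IFITM1 at 42.4 ± 15.9 RPKM and IFI27 at 37.7 ± 20.3 RPKM. The mean ± SD ranges of neighbours in this order overlap all the way from BST2 to IFI27. At the low end stood IRF1 at 2.62 ± 0.320 RPKM, IRF9 at 2.07 ± 0.282 RPKM and the RNA sensor RIGI at 0.234 ± 0.0273 RPKM, the only gene of the set with a mean under 5 CPM. All further levels are CPM scaled by TMM, which do not rank genes of different length.

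The libraries of a group differed widely in this gene set. Summed over the 39 genes, the level was 4691, 6149 and 3193 CPM in controls 1, A and B, 2418, 5900 and 4883 CPM in lupeol 50 replicates 1 to 3, and 3696, 2878 and 1316 CPM in lupeol 80 replicates 1 to 3. Control A was the highest control for 38 of the 39 genes and control B the lowest for 38. Lupeol 50 replicate 1 was the lowest of its group for 38 genes and replicate 2 the highest for 38. Lupeol 80 replicate 3 was the lowest of its group for 37 genes. The groups therefore overlapped in sum, with lupeol 50 replicate 1 below every control and lupeol 80 replicate 1 above control B.

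Across all 9 libraries, lupeol 80 replicate 3 held the lowest value for 35 of the 39 genes, where it did so for 14.9% of all genes tested. The highest value lay in lupeol 50 replicate 2 for 27 genes, against 13.6% of all genes, and in control A for the other 12, against 12.3%. Relative to the control mean on the log2 scale, the median gene of the set stood at 0.04, 0.39 and -0.41 in controls 1, A and B. The same median was -0.86, 0.50 and 0.24 in the lupeol 50 replicates and -0.26, -0.63 and -1.89 in the lupeol 80 replicates. The median of all genes stayed between 0.00 and 0.01 in every library. The lowest single value was that of IFI44L in lupeol 80 replicate 3, at -4.64.

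**Figure D1:**
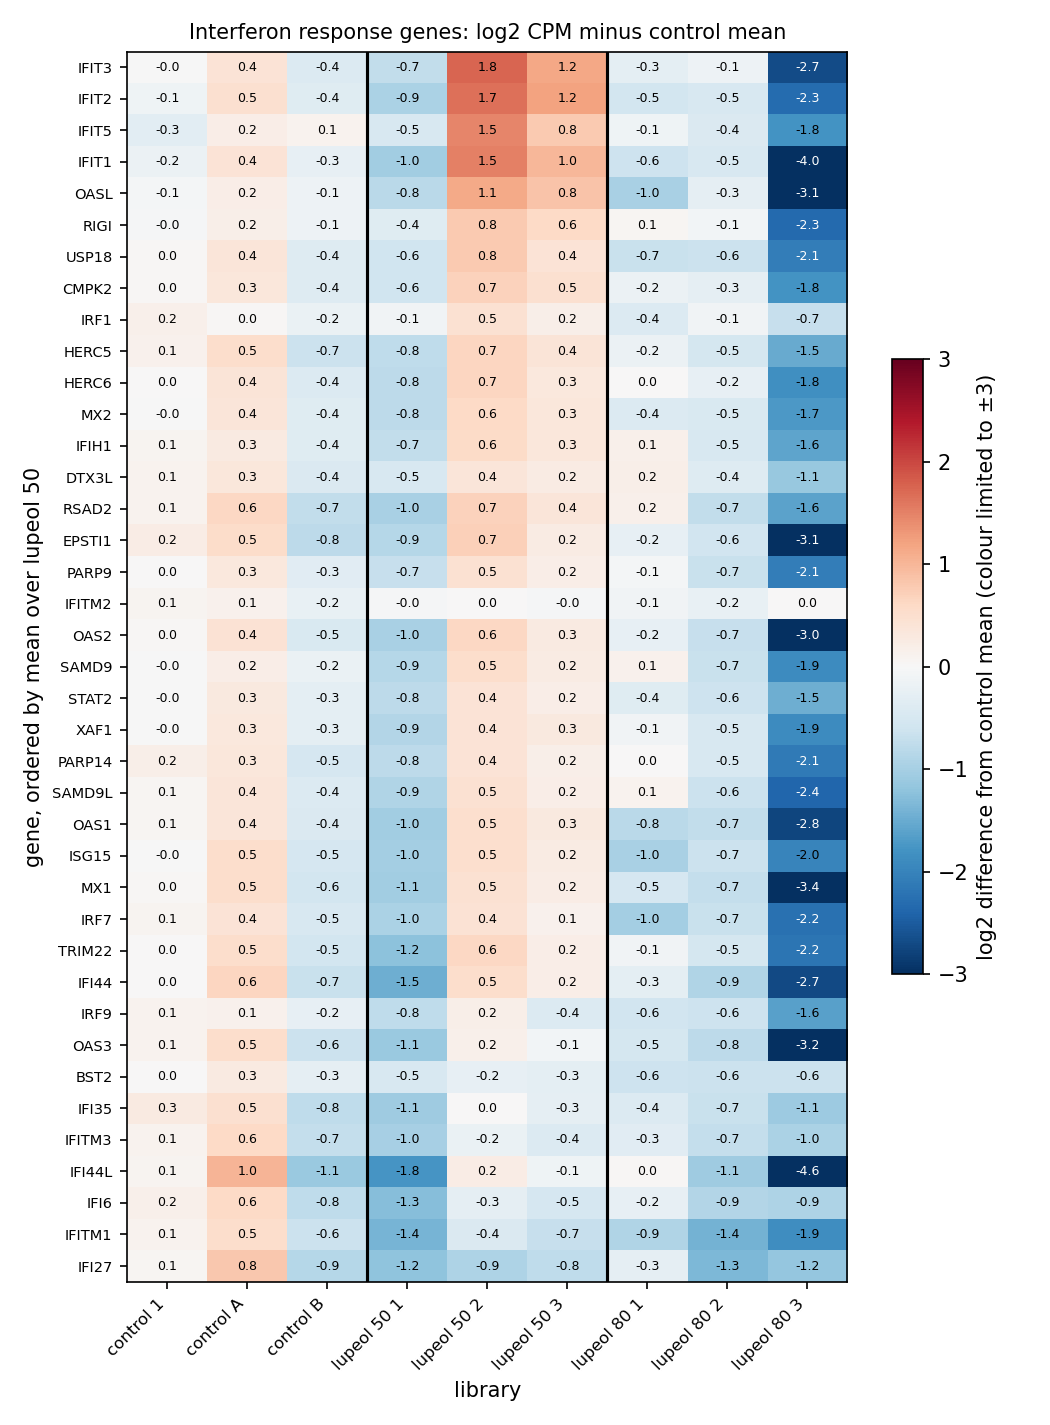
Each cell gives the log2 CPM of a gene (rows, ordered by the mean over lupeol 50) in a library (columns) minus the mean of the 3 controls, with red above and blue below the control mean and colour limited to 3 in each direction. The column of lupeol 80 replicate 3 is blue for 38 of 39 genes, lupeol 50 replicate 1 lies below the control mean for all 39, and lupeol 50 replicate 2 lies above it for 34.

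The spread within a group was larger for these genes than for others of like level. The median pooled SD of log2 CPM within groups was 0.72 for the 39 genes and 0.18 for the 11695 tested genes in the same range of mean level. Within the lupeol 80 group the median SD was 0.90 for the set against 0.21, and within the controls it was 0.40 against 0.13. From the lowest to the highest library of a group, the median gene of the set differed 1.75-fold among controls, 2.58-fold at lupeol 50 and 3.42-fold at lupeol 80. The extreme was IFI44L, at 25.8-fold among the lupeol 80 libraries, and the opposite extreme BST2, at 1.02-fold among the same libraries.

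The comparison of lupeol 80 with control asked what the higher dose did to the transcripts. All 39 genes had a log2 fold change below 0, against 48.9% of all genes, with a median of -0.77 beside 0.01 for all genes and a range from -1.41 for IFITM1 to -0.11 for IFITM2. Most of these genes varied together from library to library, so counts over the set are not counts of independent genes. The set was also chosen with earlier results of these data known. Only BST2 passed edgeR's test over all genes and fell. It is 1 of 39 genes, where 0.854% of all genes tested were called lower and 1.14% in either direction. Without adjustment 4 genes passed (BST2, IFITM1, IRF1 and IRF9), all lower, against 10.7% of all genes. The 3 lupeol 80 libraries lay below all 3 controls for 12 genes, against 12.9% of all genes, and above them for 0 genes, against 11% of all genes. Adjusted p-values of the 38 genes that did not pass ran from 0.12 to 0.69, and every ± beside a log2 fold change is an SE. Without lupeol 80 replicate 3 the median log2 fold change was -0.49, with 38 genes below 0 and no gene called, and without lupeol 80 replicate 1 it was -1.13.

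**Figure D2:**
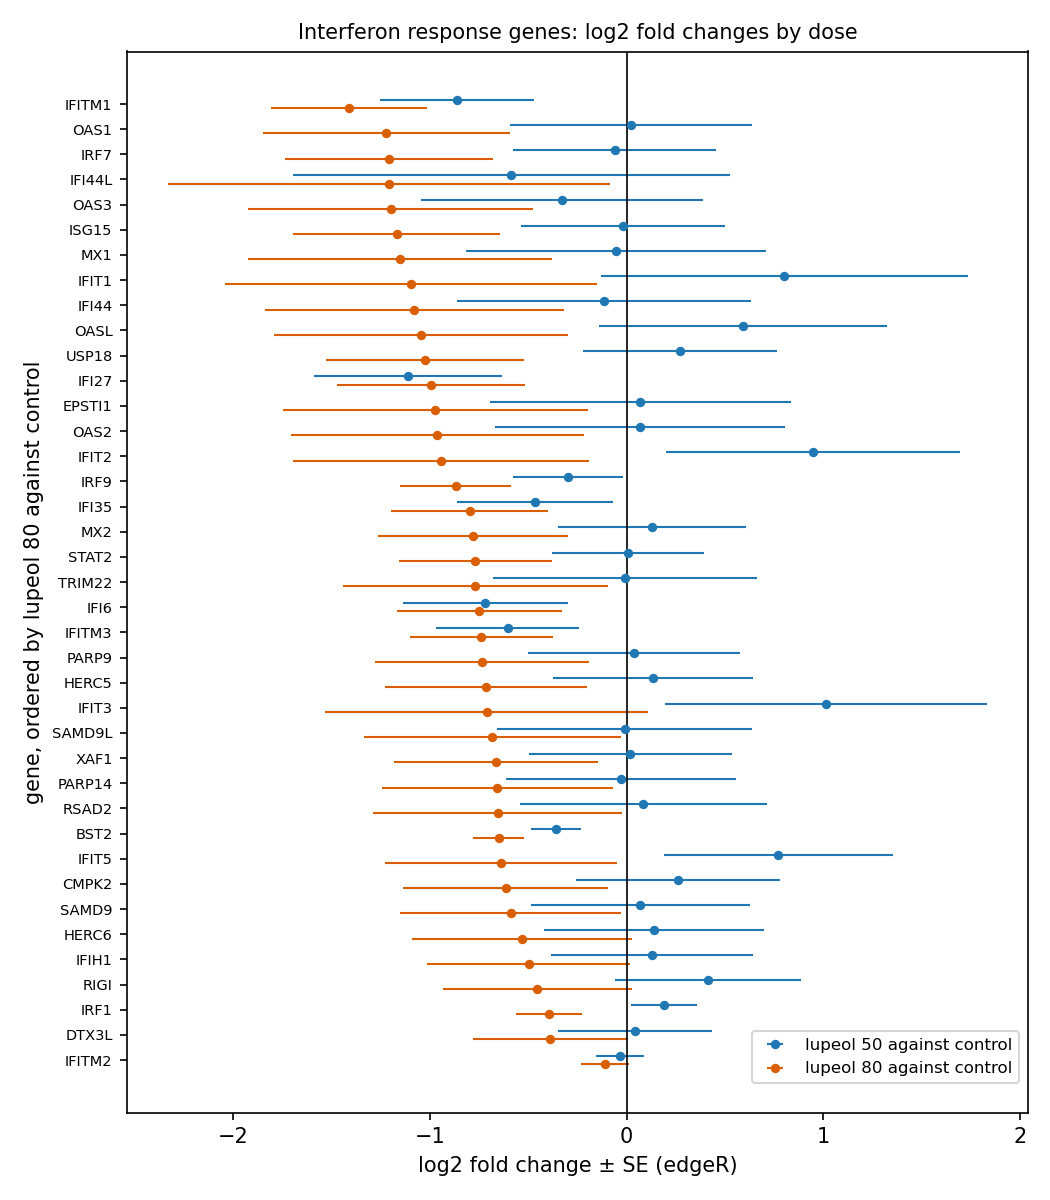
Points give the log2 fold change of each gene at lupeol 50 (blue) and lupeol 80 (orange) against control and lines give ± 1 SE from edgeR, with genes ordered by the value at lupeol 80. All 39 orange points lie below 0, from -1.41 for IFITM1 to -0.11 for IFITM2, while the blue points run from -1.11 for IFI27 to 1.01 for IFIT3.

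BST2 (chr19:17402939-17405630 on GRCh38, minus strand) had 316, 378 and 263 CPM in the controls, 225, 266 and 256 at lupeol 50 and 205, 203 and 201 at lupeol 80, each triple in the order controls 1, A and B or replicates 1, 2 and 3. All lupeol 80 libraries lay close together below all the others, and lupeol 50 overlapped the controls only through replicate 2, which stood just above control B. The log2 fold change was -0.65 ± 0.13 (SE, adjusted p = 0.027) at lupeol 80 and -0.36 ± 0.13 (SE, adjusted p = 0.29) at lupeol 50. Leaving out a library ended the call at lupeol 80 in 4 of 9 cases, with adjusted p = 0.15 without control 1, 0.16 without control A, 0.06 without lupeol 50 replicate 3 and 0.077 without lupeol 80 replicate 3. The log2 fold change stayed between -0.77 and -0.51 over these 9 fits. Over all genes, 0 were called at lupeol 80 without control 1 and 1 without control A, against 201 with all libraries, so every call at lupeol 80 named below also ends without control 1. In the fit of these 2 groups alone the adjusted p was 0.052, and over all alternatives it ran from 7.6e-05 to 0.16. Between the doses the log2 fold change was -0.29 ± 0.13 (SE, adjusted p = 0.29), and all lupeol 80 values lay below all lupeol 50 values.

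The factors that carry the signal into the nucleus come next. STAT2, a part of ISGF3 that activates transcription, had 123, 151 and 101 CPM in the controls, 71.3, 163 and 142 at lupeol 50 and 94.95, 79.7 and 44.8 at lupeol 80. The lupeol 80 libraries lay below every control, while lupeol 50 spanned from below the controls to above them. At lupeol 80 the log2 fold change was -0.77 ± 0.39 (SE, adjusted p = 0.33). IRF9, the DNA-binding part of ISGF3, had 7.95, 8.03 and 6.24 CPM in the controls, 4.30, 8.26 and 5.52 at lupeol 50 and 4.97, 4.80 and 2.33 at lupeol 80, again with no overlap between lupeol 80 and control. The change at lupeol 80 was -0.87 ± 0.28 (SE, adjusted p = 0.12) on the log2 scale. Of the exon bases of IRF9, 42.2% are shared with a second annotated gene on the same strand, so its counts are uncertain.

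IRF7, a main activator of interferon-alpha genes, had 88.7, 111 and 60.4 CPM in the controls, 43.3, 114 and 91.8 at lupeol 50 and 41.8, 52.9 and 17.6 at lupeol 80. Lupeol 80 lay below all controls, and lupeol 50 replicate 1 lay among the lupeol 80 values. The log2 fold change was -1.21 ± 0.53 (SE, adjusted p = 0.28) at lupeol 80. IRF1, an activator shared with the interferon-gamma response, had 35.8, 32.8 and 28.0 CPM in the controls, 29.5, 44.3 and 36.2 at lupeol 50 and 24.0, 29.5 and 19.9 at lupeol 80. The highest lupeol 80 value lay above control B, and lupeol 50 replicate 2 was the highest of all libraries. Its log2 fold change was -0.39 ± 0.17 (SE, adjusted p = 0.21) against control and -0.58 ± 0.17 (SE, adjusted p = 0.13) between the doses, where replicate 2 of lupeol 80 and replicate 1 of lupeol 50 nearly coincide. IRF1 shares 22.9% of its exon bases with an antisense gene, and the use of strand in counting is not stated.

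**Figure D3:**
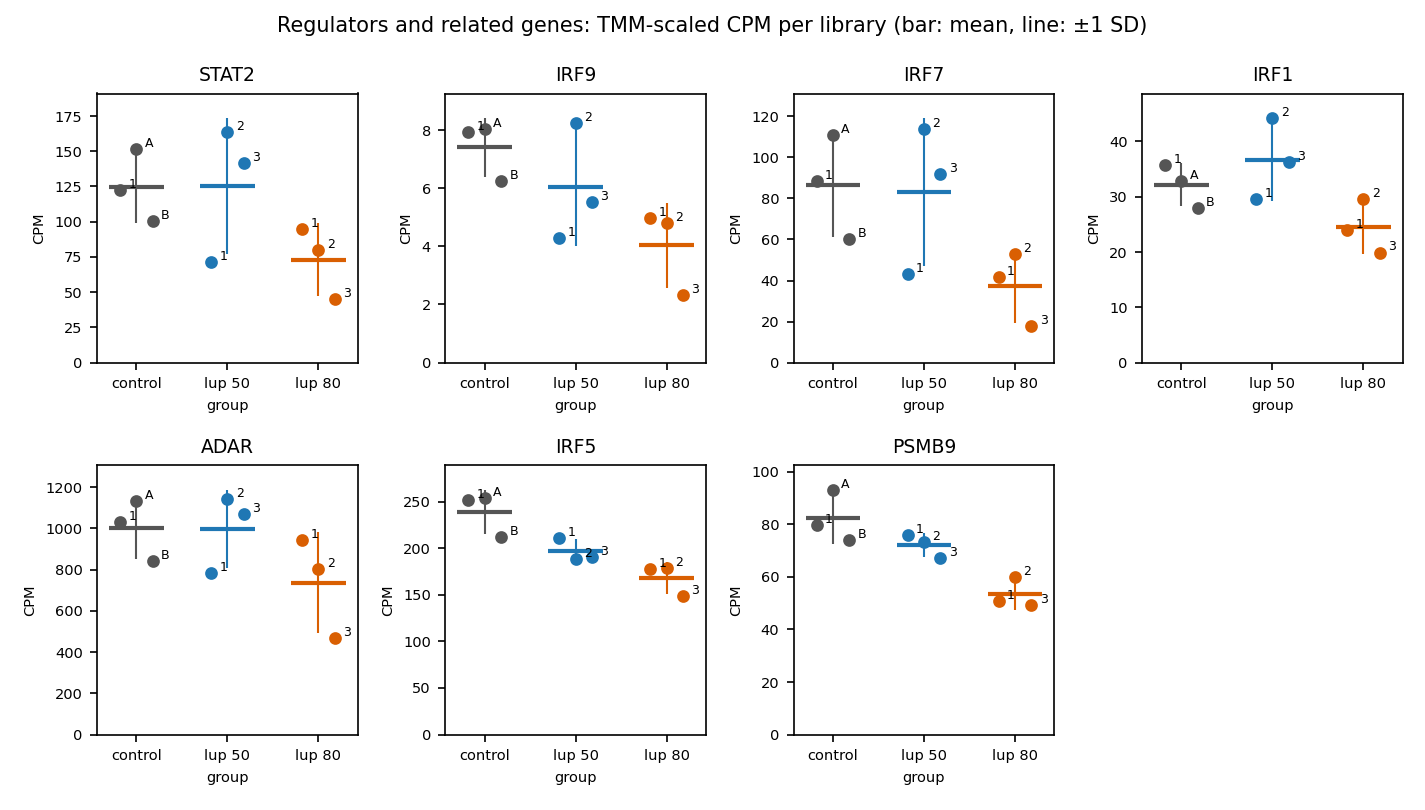
Points are TMM-scaled CPM (y axes, from 0) of single libraries, labelled by replicate, with bars at group means and lines of ± 1 SD (n = 3). STAT2, IRF9 and IRF7 have all lupeol 80 libraries below all controls, as do IRF5 and PSMB9 from the related lists, while ADAR overlaps between these groups.

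The ISG15 system holds the modifier, its ligases and its protease. ISG15 (chr1:1001138-1014540) had 149, 218 and 107 CPM in the controls, 75.1, 214 and 179 at lupeol 50 and 76.5, 96.1 and 38.1 at lupeol 80. All lupeol 80 libraries lay below the lowest control, and lupeol 50 replicate 1 lay as low as lupeol 80 replicate 1. Its log2 fold change was -1.17 ± 0.53 (SE, adjusted p = 0.29) against control and -1.15 ± 0.53 (SE, adjusted p = 0.37) between the doses. USP18, which removes ISG15 and damps receptor signalling, had 47.3, 60.0 and 35.2 CPM in the controls, 30.4, 80.0 and 61.8 at lupeol 50 and 29.2, 29.6 and 11.0 at lupeol 80. Lupeol 80 lay below every other library, and the log2 fold change was -1.03 ± 0.50 (SE, adjusted p = 0.32) against control and -1.30 ± 0.50 (SE, adjusted p = 0.31) between the doses. HERC5, the main human ISG15 ligase, had a log2 fold change of -0.71 ± 0.51 at lupeol 80 and its relative HERC6, the ISG15 ligase of mice, one of -0.53 ± 0.56. Both had overlapping groups.

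The IFITM genes (chr11:303655-329475) encode small membrane proteins that restrict virus entry. IFITM1 had 72.5, 96.0 and 43.2 CPM in the controls, 25.5, 49.2 and 41.7 at lupeol 50 and 36.1, 24.9 and 18.3 at lupeol 80. The lupeol 80 libraries lay below all controls, and lupeol 50 overlapped both groups. The log2 fold change of IFITM1 was -1.41 ± 0.40 (SE, adjusted p = 0.13) at lupeol 80 and -0.86 ± 0.39 (SE, adjusted p = 0.44) at lupeol 50. IFITM3 had 275, 389 and 157 CPM in the controls, 127, 222 and 192 at lupeol 50 and 204, 156 and 133 at lupeol 80, with control B inside the range of both doses. Its log2 fold change was -0.74 ± 0.36 (SE, adjusted p = 0.32) at lupeol 80 and -0.60 ± 0.36 (SE, adjusted p = 0.55) at lupeol 50. IFITM2 differed from both in its narrow range, with 52.4, 54.4 and 42.6 CPM in the controls, 48.2, 49.8 and 48.0 at lupeol 50 and 46.0, 42.7 and 49.6 at lupeol 80, and its log2 fold change at lupeol 80 was -0.11 ± 0.12 (SE, adjusted p = 0.66). These 3 genes are close paralogs and the handling of reads with several alignments is not stated, so the split of reads among them is uncertain.

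IFI6 and IFI27 encode related small membrane proteins of the response. IFI6 had 268, 361 and 142 CPM in the controls, 99.0, 199.6 and 169 at lupeol 50 and 202, 131 and 125 at lupeol 80. Control B lay within the range of the treated libraries at both doses, so no group stood apart. The log2 fold change was -0.75 ± 0.42 (SE, adjusted p = 0.38) at lupeol 80 and -0.72 ± 0.42 (SE, adjusted p = 0.54) at lupeol 50. IFI6 shares 23.1% of its exon bases with a second annotated gene on the same strand, so its counts are uncertain. IFI27 had 147, 245 and 77.3 CPM in the controls, 60.4, 74.3 and 82.2 at lupeol 50 and 117, 55.4 and 62.6 at lupeol 80, with controls 1 and A above every other library and control B in the range of the treated cells. Its log2 fold change was -0.99 ± 0.48 (SE, adjusted p = 0.31) at lupeol 80 and -1.11 ± 0.48 (SE, adjusted p = 0.42) at lupeol 50. IFI35, a partner of NMI, had a log2 fold change of -0.80 ± 0.40 at lupeol 80 with overlapping groups.

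The oligoadenylate synthetases OAS1, OAS2 and OAS3, which make the messenger that activates RNase L, lie side by side (chr12:112905856-113011723). OAS1 had 58.8, 71.6 and 41.8 CPM in the controls, 27.1, 79.7 and 68.2 at lupeol 50 and 31.9, 33.6 and 8.20 at lupeol 80. Its lupeol 80 libraries lay below all controls, and the log2 fold change was -1.22 ± 0.63 (SE, adjusted p = 0.35). OAS2 had 389, 519 and 277 CPM in the controls, 194, 590.2 and 459 at lupeol 50 and 323, 238 and 47.0 at lupeol 80, where lupeol 80 replicate 1 lay above control B. The log2 fold change of OAS2 at lupeol 80 was -0.96 ± 0.74 (SE, adjusted p = 0.54), and without lupeol 80 replicate 3 it was -0.49. OAS3 had 505, 674 and 299 CPM in the controls, 217, 520.3 and 441 at lupeol 50 and 321, 271 and 50.6 at lupeol 80, with the same overlap through lupeol 80 replicate 1. For OAS3 the log2 fold change at lupeol 80 was -1.20 ± 0.73 (SE, adjusted p = 0.42), and -0.73 without lupeol 80 replicate 3. OASL, a family member known to enhance RIG-I signalling, had 24.3, 29.4 and 23.1 CPM in the controls, 14.5, 55.7 and 45.8 at lupeol 50 and 13.1, 21.1 and 2.94 at lupeol 80. The lupeol 80 values lay below all controls while replicates 2 and 3 of lupeol 50 lay above them, and the log2 fold change at lupeol 80 was -1.05 ± 0.75 (SE, adjusted p = 0.50).

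The IFIT genes (chr10:89283694-89421605) encode proteins that bind foreign RNA and keep it from translation. IFIT1 had 53.3, 79.8 and 50.2 CPM in the controls, 29.2, 171 and 119 at lupeol 50 and 38.9, 42.8 and 3.75 at lupeol 80. Its lupeol 80 libraries lay below all controls, lupeol 50 replicates 2 and 3 lay above all controls, and lupeol 50 replicate 1 lay below them. The log2 fold change was -1.10 ± 0.95 (SE, adjusted p = 0.58) at lupeol 80 and -0.57 without lupeol 80 replicate 3. IFIT2 had 34.4, 52.5 and 29.4 CPM in the controls, 19.6, 118 and 86.8 at lupeol 50 and 25.7, 27.1 and 7.53 at lupeol 80, with the same order of libraries and no overlap of lupeol 80 with control. Its log2 fold change was -0.94 ± 0.75 (SE, adjusted p = 0.55) against control and -1.89 ± 0.77 (SE, adjusted p = 0.32) between the doses. IFIT3 had 64.7, 86.2 and 48.9 CPM in the controls, 38.6, 219 and 146 at lupeol 50 and 53.0, 58.7 and 10.0 at lupeol 80. IFIT5, the member farthest downstream in the cluster, had 15.6, 22.4 and 21.0 CPM in the controls, 13.9, 53.7 and 33.5 at lupeol 50 and 17.9, 14.3 and 5.59 at lupeol 80. In both the lupeol 80 group overlapped the controls, and the log2 fold change at lupeol 80 was -0.71 ± 0.82 for IFIT3 and -0.64 ± 0.59 for IFIT5.

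MX1 and its neighbour MX2 (chr21:41361999-41470071) encode dynamin-like GTPases that trap viral components. MX1 had 137, 192 and 91.6 CPM in the controls, 64.6, 184 and 157 at lupeol 50 and 94.9, 81.6 and 12.8 at lupeol 80. Lupeol 80 replicate 3 lay far below the rest, replicate 1 lay just above control B, and the log2 fold change was -1.15 ± 0.77 (SE, adjusted p = 0.47), or -0.66 without that lowest library. MX2 had a log2 fold change of -0.78 ± 0.48 at lupeol 80, with all its lupeol 80 values below all controls. IFI44L, next to its relative IFI44 (chr1:78619902-78664078), had 107, 206 and 47.0 CPM in the controls, 29.5, 119 and 92.4 at lupeol 50 and 103, 48.7 and 4.00 at lupeol 80. Its controls alone differed 4.40-fold, and the log2 fold change at lupeol 80 was -1.21 ± 1.12 (SE, adjusted p = 0.61), or -0.66 without lupeol 80 replicate 3. IFI44 had a log2 fold change of -1.08 ± 0.76 at lupeol 80, with overlapping groups.

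**Figure D4:**
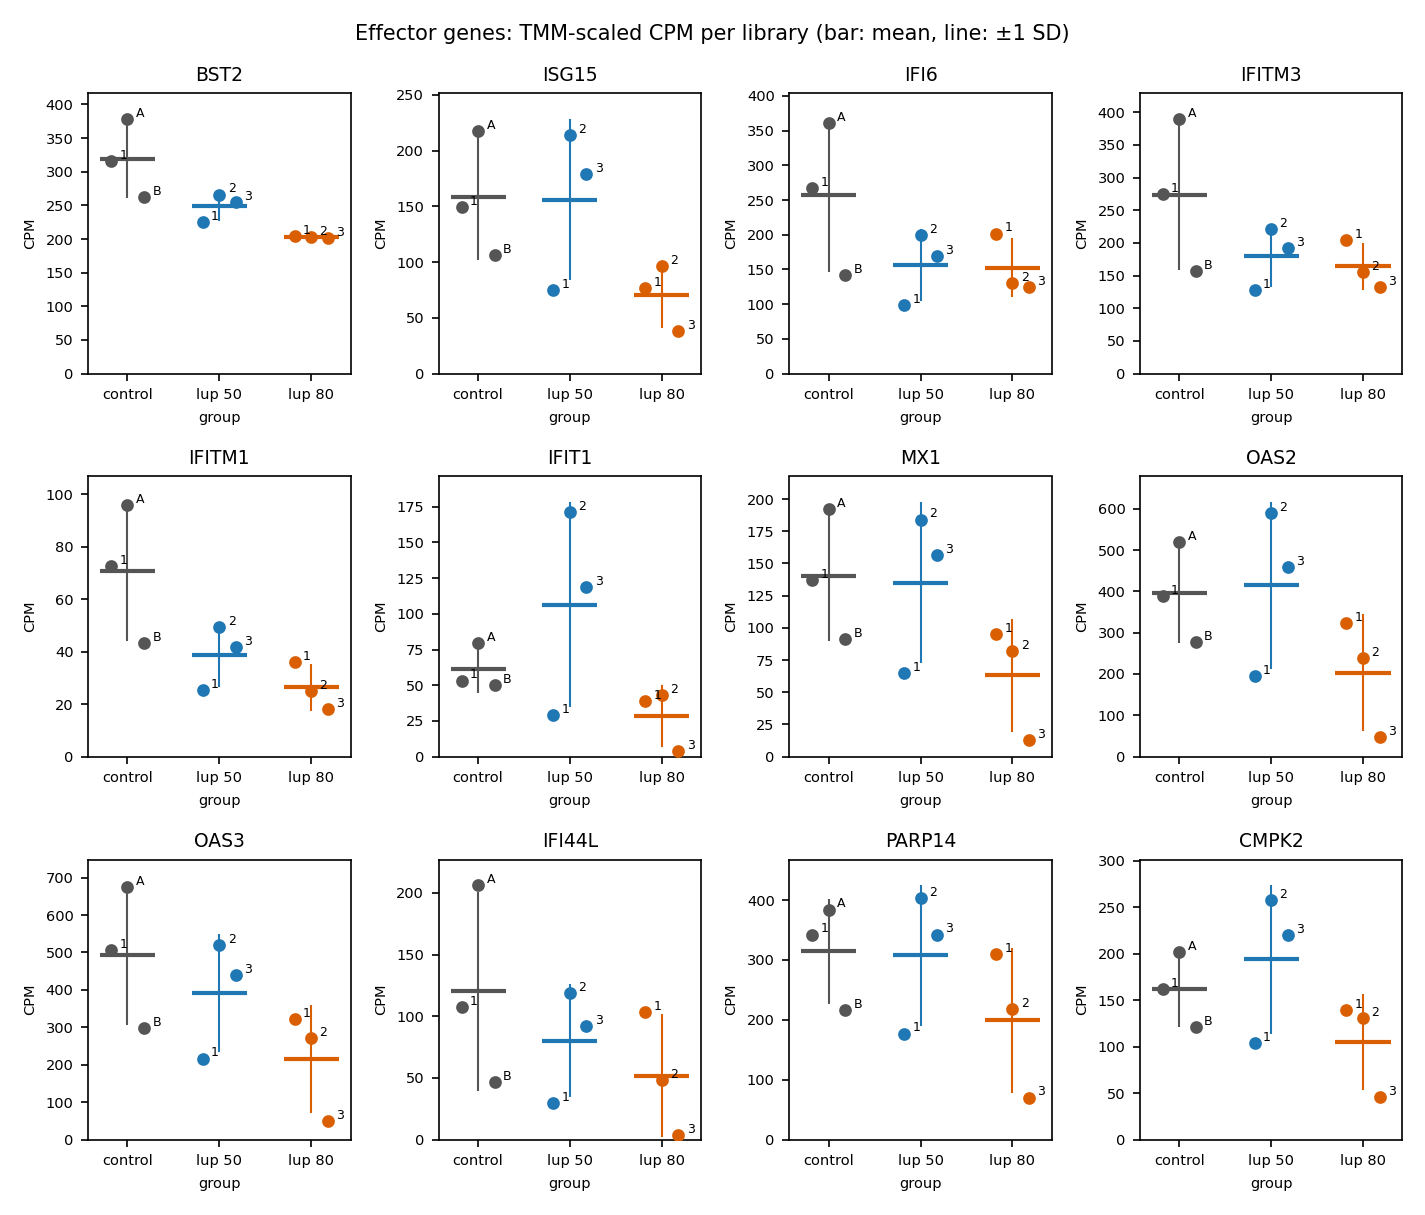
Points are TMM-scaled CPM (y axes, from 0) of single libraries for 12 effector genes, labelled by replicate, with bars at group means and lines of ± 1 SD (n = 3). BST2 has its lupeol 80 libraries between 201 and 205 CPM, below all others. By contrast, IFIT1, MX1, OAS2, OAS3, IFI44L, PARP14 and CMPK2 have lupeol 80 replicate 3 far below replicates 1 and 2.

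CMPK2, a mitochondrial nucleotide kinase, had 162, 201 and 121 CPM in the controls, 104, 257 and 220.3 at lupeol 50 and 139.6, 131 and 45.9 at lupeol 80. Its lupeol 80 libraries overlapped the controls through replicates 1 and 2, and the log2 fold change was -0.62 ± 0.52 (SE, adjusted p = 0.57). RSAD2 (viperin), whose gene overlaps CMPK2 on the opposite strand (chr2:6840570-6898239) with 351 shared exon bases, had a log2 fold change of -0.66 ± 0.63. PARP14, an enzyme that attaches single ADP-ribose units, had 343, 384 and 217 CPM in the controls, 177, 404 and 342 at lupeol 50 and 309.7, 218 and 70.2 at lupeol 80. Only replicate 3 of lupeol 80 lay below all controls, and the log2 fold change was -0.66 ± 0.59 (SE, adjusted p = 0.60). Its neighbours PARP9 and DTX3L (chr3:122527924-122730840 for all 3 genes), which encode a complex that modifies ubiquitin and histones, had log2 fold changes of -0.74 ± 0.54 and -0.39 ± 0.39.

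SAMD9L, which restricts translation and cell growth, had 232, 286 and 169 CPM in the controls, 121, 306 and 256 at lupeol 50 and 241, 144 and 42.8 at lupeol 80. Replicate 1 of lupeol 80 lay above control 1, replicates 2 and 3 lay below all controls, and the log2 fold change was -0.68 ± 0.65 (SE, adjusted p = 0.62). Its neighbour SAMD9 had a log2 fold change of -0.59 ± 0.56 at lupeol 80. The RNA sensors RIGI and IFIH1, which detect viral RNA in the cytosol, had log2 fold changes of -0.45 ± 0.48 and -0.50 ± 0.51. The log2 fold change was -0.77 ± 0.68 for TRIM22, a ubiquitin ligase with antiviral activity, -0.67 ± 0.52 for XAF1, an antagonist of the apoptosis inhibitor XIAP, and -0.97 ± 0.78 for EPSTI1. Each of these 6 genes had lupeol 80 libraries that overlapped the controls. XAF1 shares 38.3% of its exon bases with an antisense gene, so its counts are uncertain.

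The comparison of lupeol 50 with control asked what the lower dose did to the transcripts. No gene of the set passed edgeR's test, where 0% of all 17568 genes did, and 1 gene (BST2) had an unadjusted p under 0.05, against 12.4% of all genes. DESeq2 and limma-voom also called 0 genes of the set. The set was split, with 17 genes below control, against 50.5% of all genes, and 22 above. The median log2 fold change was 0.02, and adjusted p-values ran from 0.29 to 1.00. Groups overlapped for all 39 genes, where 9.63% of all genes had lupeol 50 wholly below the controls and 9.55% wholly above.

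The genes at both ends of that range are given as values, chosen after their values were seen. On the high side, log2 fold changes at lupeol 50 were 1.01 ± 0.82 for IFIT3, 0.95 ± 0.74 for IFIT2, 0.80 ± 0.93 for IFIT1, 0.77 ± 0.58 for IFIT5 and 0.59 ± 0.73 for OASL. The 4 IFIT genes stood between 1.46 and 1.75 above the control mean (log2) in lupeol 50 replicate 2 and between 0.78 and 1.20 above it in replicate 3. In replicate 1 they stood between -1.03 and -0.49, below that mean. On the low side were IFI27, IFITM1, IFI6, IFITM3, IFI44L, IFI35 and BST2, whose log2 fold changes at lupeol 50 ran from -1.11 for IFI27 to -0.36 for BST2. Relative to the control mean (log2), these 7 genes stood between -1.78 and -0.49 in replicate 1, between -0.92 and 0.23 in replicate 2, and between -0.77 and -0.13 in replicate 3. IFI44L, at 0.23, and IFI35, at 0.02, were above that mean in replicate 2. None of these differences passed the test.

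The doses were also compared with each other. Of the 39 genes, 38 had lower means at lupeol 80 than at lupeol 50, against 50% of all genes, with a median log2 fold change of -0.77 beside 0.00 for all genes, and IFI27 was the exception. No gene of the set passed the test, against 0.0455% of all genes, and 4 had an unadjusted p under 0.05 (BST2, IFIT2, IRF1 and USP18), against 15.4%. In the set, the lupeol 80 libraries lay wholly below the lupeol 50 libraries for BST2 and USP18, where 9.63% of all genes did. The log2 fold changes of largest size between the doses were in IFIT1 at -1.90 ± 0.96, IFIT2 at -1.89 ± 0.77, IFIT3 at -1.72 ± 0.83 and OASL at -1.64 ± 0.75. These comparisons share libraries with those against control. Without lupeol 80 replicate 3 the median was -0.41, and without lupeol 50 replicate 1 it was -1.09. The joint test over all 3 groups called 0 of the 39 genes, against 0.233% of all genes, with BST2 closest at an adjusted p of 0.056, and 4 had an unadjusted p under 0.05, against 19.9%.

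Levels of the genes varied together from library to library. Over the 9 libraries, which share group differences and scaling, Pearson's r of log2 CPM with the mean of the other 38 genes was over 0.9 for 30 of the 39, with a median of 0.97. The lowest were IFITM2 at 0.27, IFI27 at 0.54, BST2 at 0.68 and IFI6 at 0.69. Without lupeol 80 replicate 3 the median was 0.93 and 23 genes were over 0.9. BST2, the gene that passed the test, was thus among the least tied to the shared pattern of libraries.

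Among 10740 other genes at a mean level of 5 CPM or more, 72 (0.67%) had r over 0.9 with the mean of the set over the 9 libraries. The 10 most alike included ADAR, MYD88, DHX58, PML, SP110, SHFL, RNF213, TRIM25 and IFI16, with r from 0.99 down to 0.97. Without lupeol 80 replicate 3, r for these 10 lay between 0.91 and 0.98. ADAR, which edits double-stranded RNA, had 1029.6, 1130.0 and 840.1 CPM in the controls, 782, 1139.7 and 1068 at lupeol 50 and 943, 801 and 467 at lupeol 80. MYD88, an adaptor of Toll-like receptors, had 106, 120.4 and 86.3 CPM in the controls, 80.4, 120.1 and 109 at lupeol 50 and 98.0, 79.8 and 45.2 at lupeol 80. In both, lupeol 80 replicate 3 was lowest and control A and lupeol 50 replicate 2 were highest, and neither passed the test in any comparison.

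Interferon ligands were almost absent from these libraries. Of 21 ligand genes, 16 had no count in any library and IFNB1, which encodes interferon-beta, was the only one to pass the filter. IFNB1 had 18, 6 and 10 counts in controls 1, A and B, 4, 25 and 31 counts at lupeol 50 and 8, 22 and 4 counts at lupeol 80. All groups overlap at these low counts, and its log2 fold change at lupeol 80 was -0.25 ± 0.78 (SE, adjusted p = 0.89).

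Of 10 tested genes for receptors and JAK-STAT signalling, 0 were called at lupeol 80, against 1.14% of all genes. Of these 10, 3 lay below control, against 48.9% of all genes, and the median log2 fold change was 0.06. STAT3, a factor of cytokine signalling and among the abundant genes of the list, had a log2 fold change of -0.14 ± 0.11 (SE, adjusted p = 0.53). Of the receptor chain and kinases introduced above, chosen after their values were seen, IFNAR1 had a log2 fold change of 0.40 ± 0.11 (SE, adjusted p = 0.079), with all libraries of both doses above all controls. TYK2 had one of -0.39 ± 0.13 (SE, adjusted p = 0.11), with all libraries of both doses below all controls, and JAK1 one of 0.05 ± 0.12 (SE, adjusted p = 0.86), with overlapping groups.

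Of 13 tested genes of nucleic acid sensing, 12 were below control at lupeol 80, against 48.9% of all genes, with a list median of -0.43. Of these 13, IRF5 fell, where 0.854% of all genes were called lower. IRF5, an inducer of interferon and inflammatory genes in monocytes, had 251, 254 and 212 CPM in the controls, 211, 189 and 191 at lupeol 50 and 177, 179 and 149 at lupeol 80. All lupeol 80 values lay below all controls, and the log2 fold change was -0.50 ± 0.12 (SE, adjusted p = 0.046). The call ended in 5 of 9 fits that leave out 1 library (control 1, control A, lupeol 50 replicate 2 or 3, or lupeol 80 replicate 3), with adjusted p up to 0.23. The most abundant genes of the list, IRF8 and TRIM25, had log2 fold changes of -0.11 ± 0.12 and -0.43 ± 0.20, with overlapping groups. A list of 10 genes, made for inhibitors of the pathway, also holds UBE2L6, an enzyme of the ISG15 system. Of these 10, 6 were below control (48.9% of all genes) and 0 were called (1.14% of all genes), with a median of -0.25. PTPN6, the phosphatase SHP-1, had a log2 fold change of -0.55 ± 0.14 (SE, adjusted p = 0.052) at lupeol 80, and its relative PTPN11 one of 0.08 ± 0.11 (SE, adjusted p = 0.72).

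Among 39 other tested interferon-stimulated genes, 32 were below control at lupeol 80, against 48.9% of all genes, with a median of -0.46. Of these 39, CNP and MOV10 fell, where 0.854% of all genes were called lower. MOV10, an RNA helicase, had 105, 108 and 105 CPM in the controls, 85.7, 92.7 and 107 at lupeol 50 and 67.8, 86.5 and 56.3 at lupeol 80, and its log2 fold change was -0.59 ± 0.14 (SE, adjusted p = 0.046). CNP, a phosphodiesterase, had 152, 164 and 125 CPM in the controls, 128, 141 and 126 at lupeol 50 and 93.3, 116 and 91.3 at lupeol 80, and its log2 fold change was -0.55 ± 0.13 (SE, adjusted p = 0.045). In both genes lupeol 80 lay below all controls. Leaving out 1 library ended the call of CNP in 6 of 9 fits, with adjusted p up to 0.25, and that of MOV10 in 7, with adjusted p up to 0.22. CNP kept its call in those without control B, lupeol 50 replicate 1 or lupeol 80 replicate 2, and MOV10 in those without lupeol 50 replicate 1 or lupeol 80 replicate 2. DDX60L, abundant in the list beside ADAR, had a log2 fold change of 0.06 ± 0.16 (SE, adjusted p = 0.89). Of 25 tested interferon-gamma targets, 20 were below control, against 48.9% of all genes, with a median of -0.57. Of these 25, 3 were called lower, against 0.854% of all genes. The called ones were the immunoproteasome subunits PSMB9, with a log2 fold change of -0.63 ± 0.12 (SE, adjusted p = 0.027), and PSMB10, with -1.01 ± 0.16 (SE, adjusted p = 0.017), and the peptide transporter TAP1, with -0.80 ± 0.18 (SE, adjusted p = 0.046), and these 3 genes fell. Leaving out 1 library ended the call of PSMB10 in 2 of 9 fits (control 1 or control A), with adjusted p up to 0.12. It ended that of PSMB9 in 4 (also lupeol 50 replicate 3 or lupeol 80 replicate 3), with adjusted p up to 0.18. That of TAP1 ended in 7, all but those without lupeol 50 replicate 1 or lupeol 80 replicate 2, with adjusted p up to 0.21. The log2 fold changes of these 6 called genes of the other lists, IRF5, CNP and MOV10 included, stayed below 0 in every such fit. B2M, the light chain of MHC class I and the most abundant of that list, had a log2 fold change of -0.07 ± 0.13 (SE, adjusted p = 0.79). No gene of these lists was called at lupeol 50, against 0% of all genes, or between the doses, against 0.0455%.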

How the data were processed

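Whole numbers of reads per gene were deposited as 1 table of raw counts for 9 libraries of THP-1 cells, with gene coordinates and lengths, per the file headers. The submitters' processing notes name Bowtie 0.12.2 and the mouse build mm8. The gene IDs are human, and 35993 of them have the position of GENCODE release 29 on GRCh38, so coordinates are given on that build and the conflict remains. Not given in the sources used here are the counting tool, whether strand was used, and how multiply aligned reads were handled. Both control columns under a single shared heading were taken as control libraries without numbers and named A and B.

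The 39 genes and all other lists were chosen with earlier results of these data known. Of 67928 genes, 1 had empty values and was left out. edgeR 4.0.16 (R 4.3.3) was used with filterByExpr, TMM scaling and the robust quasi-likelihood F test in a single fit of 9 libraries (6 residual degrees of freedom). P-values were adjusted over 17568 genes by the Benjamini-Hochberg method and called under 0.05. Each SE was obtained from the log2 fold change and its F statistic (size of the change over the root of F). CPM and RPKM were computed here from the counts. Alternatives used DESeq2 1.42.0 and limma 3.58.1. The fitting step was tested on simulated data. SDs beside group means cover 3 libraries.

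Values per library are given for called genes, for the 8 of highest mean, for the 8 of largest change at lupeol 80, for IRF1, IRF7, IRF9 and STAT2, and, chosen after their values were seen, for IFI27, IFIT2, IFIT3, IFIT5, IFITM2, OASL and USP18. From the other lists, called genes and up to 2 of highest mean are named, and, chosen after their values were seen, IFNAR1, TYK2 and JAK1. MYD88 and ADAR stand for the 10 genes most like the set by Pearson's r. Promoter sequences are from RefSeq tables on GRCh38.p14. Results for 1 gene are not reported here.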

Additional observations from a re-analysis of the deposited data

How the results depend on the processing

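At lupeol 80 against control, the count of called genes in the set was 1 in the reported fit (1.14% of all genes called), 2 without a filter on low counts (2.55%), 3 with DESeq2 (5.18%), 0 in the fit of only the groups compared (0.458%) and 3 with control B and lupeol 80 replicate 1 both left out (4.78%). Leaving out a library at a time gave 0 to 1. Between the doses the count was 0, and 1 without the filter (1.95%) and with DESeq2 (2.5%). For any difference among groups it was 0, and 3 without the filter (4.22%), 2 with DESeq2 (6.11%), 3 with those libraries left out (5.14%), and 0 to 1 leaving out a library at a time. At lupeol 50 it was 0, and 2 with those libraries left out (BST2 at -0.49 and IFI27 at -1.44), where 5.08% of all genes were called. In each of these fits with more calls in the set, a larger share of all genes was called too. Control B was the lowest control for 38 genes of the set, and lupeol 80 replicate 1 the highest of its group for 29. Leaving out both therefore moves lupeol 80 further below control for most of the set by the choice of libraries. Without control B the control mean also rises for those 38 genes in the comparison at lupeol 50. The calls of that fit are thus no independent check. Of the called genes of the other lists at lupeol 80, MOV10 and TAP1 no longer passed with RLE size factors, IRF5, MOV10, CNP and TAP1 without scaling factors or with a mean of at least 5 CPM, IRF5, MOV10 and CNP with limma-voom, all but PSMB10 in the fit of only the groups compared, and MOV10 and TAP1 with those libraries left out. The added calls were of BST2, IFI27, IFITM1, IRF1 and IRF9. The cause was not tested. The median log2 fold change over all alternatives ran from -1.30 to -0.49 at lupeol 80, from -0.26 to 0.32 at lupeol 50, where its sign is not fixed, and from -1.21 to -0.41 between the doses. Of the single-gene values compared, 751 kept their side of the threshold, 9 passed it in addition and 5 no longer passed it (all BST2 at lupeol 80). These counts do not say that directions were kept. Because the median at lupeol 50 changed sign, genes of the set changed direction there too. No paired analysis was possible because 2 control columns carry no number of their own and the other numbers only name libraries. With 3 libraries a group and a median SD of 0.72 (log2) in the set, small differences were not detectable.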
